A study of Mus musculus with 6 samples.

Results

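Heterochromatin writers and HP1 proteins were followed in mouse embryonic fibroblasts (MEFs), primary connective tissue cells grown from embryos, with and without Zmpste24. The set holds 5 methyltransferases of histone H3 lysine 9, the 3 HP1 proteins that read that mark, the scaffold protein Trim28 and the acetyltransferase Kat8, 10 genes in all. Every probe set whose only platform symbol is one of these names was taken. This gave 23 probe sets of 9 genes, out of 18193 genes with such a probe set on the array. Suv39h1 was not analysed here. RNA came from 3 wild-type (Zmpste24+/+) and 3 Zmpste24-/- cultures, all of strain C57BL/6, from E13.5 embryos and at passage 3, with 1 array for each culture. Zmpste24 encodes the metalloprotease that cleaves prelamin A to lamin A, so its loss leaves prelamin A in the nuclear lamina, and the design sets RNA levels in cells without it against those of its normal counterparts. Cultures carry the numbers 1, 2 and 3 within both genotypes, and the labels call them 3 pairs. They do not say whether each culture is 1 embryo, so p-values measure the spread between these cultures. The arrays measure RNA, not protein or histone marks.

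In heterochromatin, the compact and mostly silent part of the genome, methyl groups on lysine 9 of histone H3 form a docking site for HP1. HP1 binds the mark through its chromodomain and brings in further methyltransferase, so that the mark can spread along the fibre. Acetylation of lysine 16 on histone H4, the work of Kat8, loosens the fibre and is low in heterochromatin. Fibroblasts are a standard cell for studying this system because their pericentric heterochromatin forms large visible foci in the mouse nucleus.

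Zmpste24 had a signal of 3850, 2249 and 2043 in wild-type cultures 1, 2 and 3 and of 365, 182 and 226 in Zmpste24-/-, and fell by 3.31 on the log2 scale (limma adjusted p = 4.02e-05 with the replicate block). Without a block its adjusted p was 0.987, and no probe set was called. Both arrays numbered 1 stood apart from the other 4, with a correlation of 0.985 to each other and of 0.927 to 0.934 to the others, which correlated at 0.980 to 0.987 among themselves. Xist was at 69.3 and 43.7 in wild-type cultures 2 and 3 and between 4766 and 6669 in the other 4, so numbers 2 and 3 also differed by sex between the genotypes, by this transcript. All 10 fibroblast markers looked up passed the filter on dim signal described next, Col1a1 at 9746 to 12457 and the lowest, Lum, at 292 to 7892. Signals are linear intensities scaled by the authors to one trimmed mean per array, and cannot be set against each other between probe sets. Tests ran on log2(signal + 16) over the 27022 probe sets that passed a filter on dim signal, and an adjusted p under 0.05 is a call. Of the 23 member probe sets 19 passed that filter. The 4 that did not, 2 of Setdb1 and 2 of Cbx5, lay between 2.31 and 44.6 on all arrays.

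Between the genotypes no member was called. Of the 19 tested probe sets, limma called 0 in the unblocked fit and 0 in the fit with the replicate block, beside 0% and 0.0185% of all probe sets. At an unadjusted p under 0.05 the count was 0 without a block and 1 with it, beside 1.29% and 8.99%. Each gene taken by its brightest probe set, the median log2 difference of the 9 genes was -0.03, with 3 genes higher in Zmpste24-/-. Over all 13038 named genes tested it was 0.00, with 49.0% higher. The groups did not overlap for 1 of the 19 member probe sets, lower in Zmpste24-/- (5.26%), and for 0 higher, against 3.03% and 2.22% of all probe sets. In every same-numbered pair, 4 of the 19 (21.1%) were higher and 2 (10.5%) lower, against 15.8% and 4329 of the 27022 probe sets. With 19 probe sets these counts lie near the background. A missed threshold does not show equal levels, and the intervals below give the range of differences that these arrays leave possible.

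**Figure D1:**
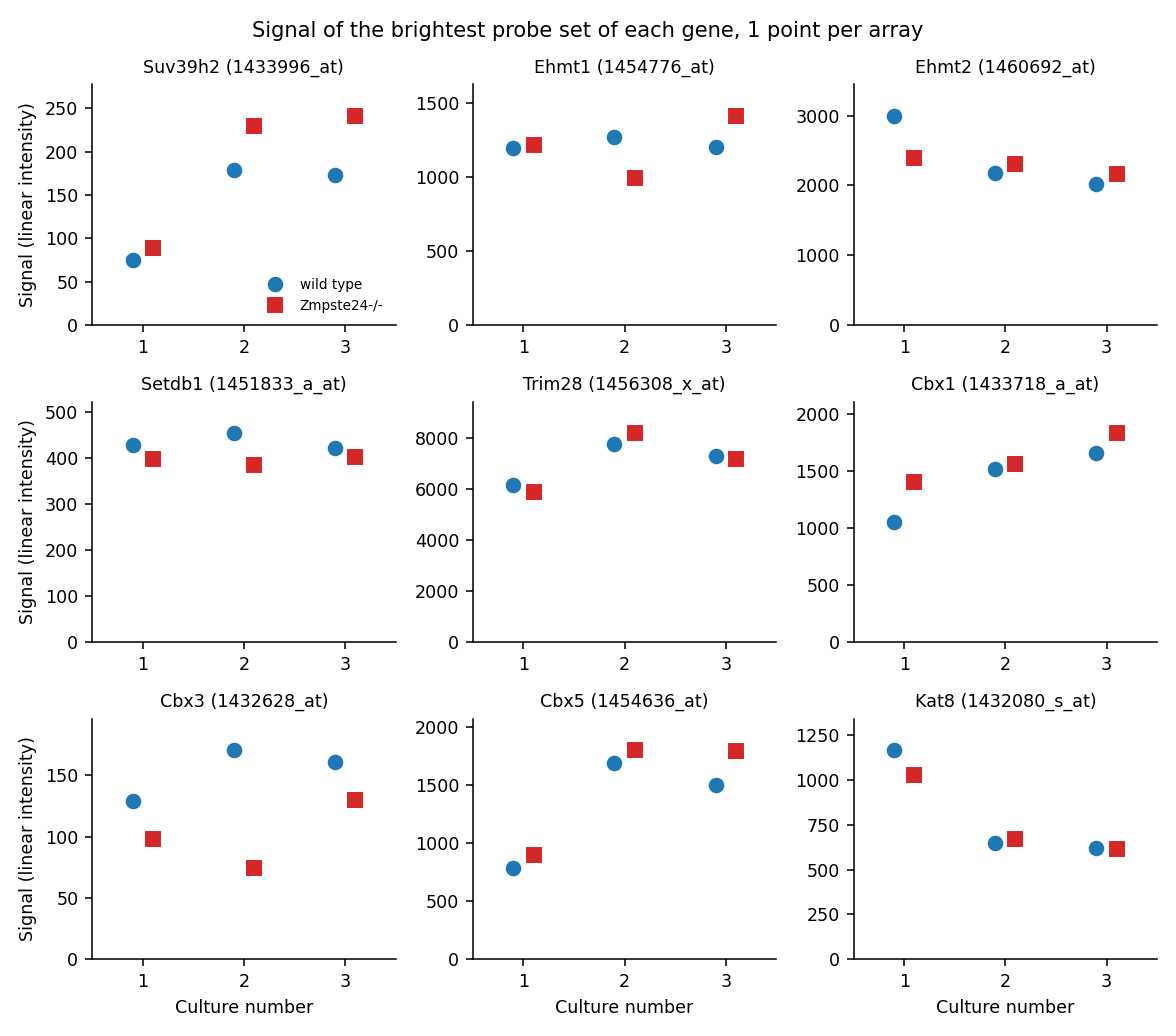
Signal (linear intensity, vertical axes starting at 0) of the brightest probe set of each of the 9 measured genes by culture number, with wild-type arrays as circles and Zmpste24-/- arrays as squares. Suv39h2, Cbx5, Cbx1 and Trim28 are lowest in number 1 in both genotypes and Kat8 is highest there. Ehmt2 is also highest in number 1 in both genotypes, 1.24-fold, but was not called by number. Circles and squares of one number lie close together in most panels.

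The methyltransferases come first. Suv39h2, which with its relative Suv39h1 places the dense methylation of pericentric heterochromatin, had signals of 74.6, 179 and 173 in wild-type cultures 1, 2 and 3 and of 88.8, 229.7 and 241 in Zmpste24-/-. The Zmpste24-/- culture was the higher in each pair, while the groups overlapped because number 1 was low in both. The log2 difference was 0.33, with a 95% interval from -0.77 to 1.43 without a block (limma adjusted p = 0.9999) and from -0.01 to 0.67 with the replicate block (adjusted p = 0.566). A second Suv39h2 probe set had 47.6, 139 and 141 in wild type and 30.01, 170.5 and 174.5 in Zmpste24-/-, and did not keep one direction, with log2 differences of -0.47, 0.27 and 0.28 in pairs 1, 2 and 3. The third lay between 20.9 and 81.8 on all arrays, with pair differences from -0.66 to 1.41.

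Ehmt1 and Ehmt2, known as GLP and G9a, work as a complex that methylates the same lysine mainly in euchromatin. Ehmt1 had 1193, 1268 and 1201 in wild type and 1216, 992 and 1411 in Zmpste24-/-. Its wild-type cultures were close together (1221 ± 40.9, SD, n = 3) and the Zmpste24-/- cultures lay on both sides of them (1206 ± 209). Ehmt2, by its brighter probe set, had 2997, 2183 and 2014 in wild type and 2395, 2306 and 2169 in Zmpste24-/-. Wild-type culture 1 was the highest, and the difference turned from -0.32 in pair 1 to 0.08 and 0.11 in pairs 2 and 3. With the replicate block the 95% interval of the fold between genotypes ran from 0.813 to 1.18 for Ehmt1 and from 0.831 to 1.13 for Ehmt2.

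Setdb1, which methylates lysine 9 at retroelements and other sites to which Trim28 is brought by zinc finger proteins, had 429, 455 and 422 in wild type and 399, 386 and 403 in Zmpste24-/-. All 3 Zmpste24-/- values lay below all 3 wild-type values, by a narrow margin. This was the member whose groups did not overlap. The log2 difference was -0.13 (SE 0.11 with the replicate block), limma gave an adjusted p of 0.745 in that fit, and the interval of the fold ran from 0.768 to 1.09. Trim28 had 6146, 7738 and 7289 in wild type and 5864, 8179.5 and 7156 in Zmpste24-/- by its brighter probe set. The log2 difference was the smallest of the 9 genes in size (-0.00), with means of 7058 ± 821 and 7067 ± 1160 (SD, n = 3 each), and the interval of the fold ran from 0.917 to 1.08. The other Trim28 probe set differed by 0.01 on the log2 scale.

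The HP1 proteins share a chromodomain and a chromoshadow domain, by which they pair and hold their partners. Cbx5 (HP1 alpha), concentrated in pericentric heterochromatin, had 786, 1691 and 1499 in wild type and 897, 1802 and 1797 in Zmpste24-/- by its brightest probe set. Zmpste24-/- was the higher in each pair, by log2 differences of 0.19, 0.09 and 0.26. The mean of 0.18 had a 95% interval from -0.01 to 0.37 with the replicate block (limma adjusted p = 0.568). The other tested Cbx5 probe sets differed by 0.08 and 0.10, each with 1 pair of opposite sign.

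Cbx1 (HP1 beta), which is found in heterochromatin and euchromatin, had 1051, 1517 and 1656 in wild type and 1404, 1563 and 1832 in Zmpste24-/-. It too was higher in each pair, most in pair 1 (0.41, against 0.04 and 0.14). The log2 difference was 0.20 with a blocked interval from -0.01 to 0.41 (limma adjusted p = 0.578). A second of its 5 probe sets was also higher in each pair, with a mean of 0.17, and the remaining 3 had means of 0.00, -0.07 and 0.18 with mixed pairs.

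Cbx3 (HP1 gamma), the member tied to active genes as well as to silent ones, had the lowest log2 difference of the set. Its only probe set with a single symbol had 129, 171 and 160.5 in wild type and 98.1, 74.8 and 130.2 in Zmpste24-/-. Each Zmpste24-/- value was below its wild-type partner, though the groups overlapped at 129 and 130.2. The log2 differences in pairs 1, 2 and 3 were -0.34, -1.04 and -0.27, so pair 2 carried most of it. The mean was -0.55, and the limma p with the replicate block was 0.024 before adjustment and 0.501 after. Another 4 probe sets list Cbx3 together with the pseudogene Cbx3-ps5, and were not used. Kat8, the acetyltransferase of histone H4 lysine 16, had 1166, 650.2 and 622 in wild type and 1025, 668 and 613 in Zmpste24-/-, with a log2 difference of -0.05 and a blocked fold interval from 0.826 to 1.12. Its only probe set has the suffix _s_at, which marks probes shared by several transcripts. The tested probe sets of Setdb1 and Trim28 and most of those of Cbx1 carry the suffixes _a_at or _x_at.

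**Figure D2:**
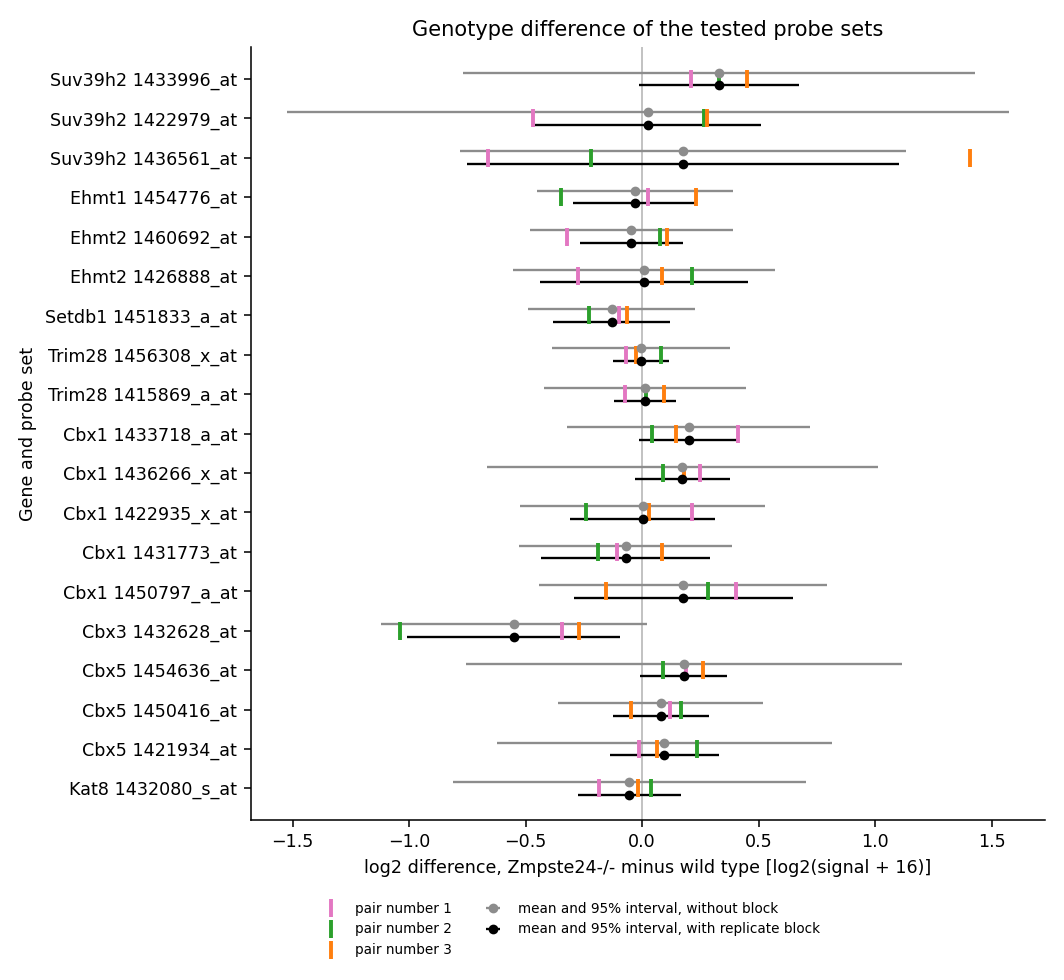
Log2 difference (Zmpste24-/- minus wild type, horizontal axis) of the 19 tested member probe sets, with the mean and its 95% limma interval without a block (grey) and with the replicate block (black) and each same-numbered pair as a coloured tick. Only the blocked interval of Cbx3 leaves out 0, from -1.01 to -0.09, and its adjusted p is 0.501.

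By culture number, Suv39h2, Trim28, Cbx1 and Cbx5 were lower in number 1 than in the other cultures and Kat8 was higher, in both genotypes. The F-test of limma for the number, with genotype in the model, called 9 of 19 probe sets, or 47.4%, beside 41.6% of all 27022 probe sets. The count alone is thus near the background. Of the 9, 8 (42.1% of the 19) had both number 1 arrays below the other 4, where 18.5% of all probe sets were called so, and 1 (5.26%) had both above, where 21.2% were. The 8 belong to Suv39h2, Trim28, Cbx1 and Cbx5, 2 probe sets each, and are therefore not separate cases. Whether that direction is particular to these genes was not tested.

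Suv39h2 had the widest gap. By the brightest probe set its signal was 2.52-fold higher in the mean of cultures 2 and 3 than in number 1, and by the second 4.03-fold higher. The log2 differences of number 2 and of number 3 from number 1 were 1.17 and 1.18 (SE 0.18, adjusted p = 0.00162). The third, dim probe set had no such gap (adjusted p = 0.941). Cbx5 was 2.02-fold higher in numbers 2 and 3 (log2 differences 1.04 and 0.95, SE 0.10, adjusted p = 1.73e-04), and its other probe sets were 1.26-fold and 1.54-fold higher, of which the second was called. Cbx1 was 1.34-fold higher by its brightest probe set (adjusted p = 0.0181) and 1.84-fold by the next (5.33e-04), and its remaining 3 were not called. Trim28 was 1.26-fold and 1.33-fold higher (0.00352 and 0.00277).

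Kat8 ran the other way. It was 1.72-fold higher in number 1 than in the others, with log2 differences of -0.72 and -0.81 for numbers 2 and 3 (SE 0.12, adjusted p = 0.00154). Ehmt1 (adjusted p = 0.483), Setdb1 (0.989), Cbx3 (0.485) and Ehmt2 (0.0864 and 0.317) were not called. Cultures 2 and 3 lay close to each other. For the brightest probe sets of the called genes, number 3 minus number 2 was 0.01 for Suv39h2, -0.09 for Cbx5, 0.18 for Cbx1, -0.14 for Trim28 and -0.09 for Kat8, each with a 95% interval that holds 0. One Cbx5 probe set differed there, by -0.47 with an interval from -0.75 to -0.18.

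**Figure D3:**
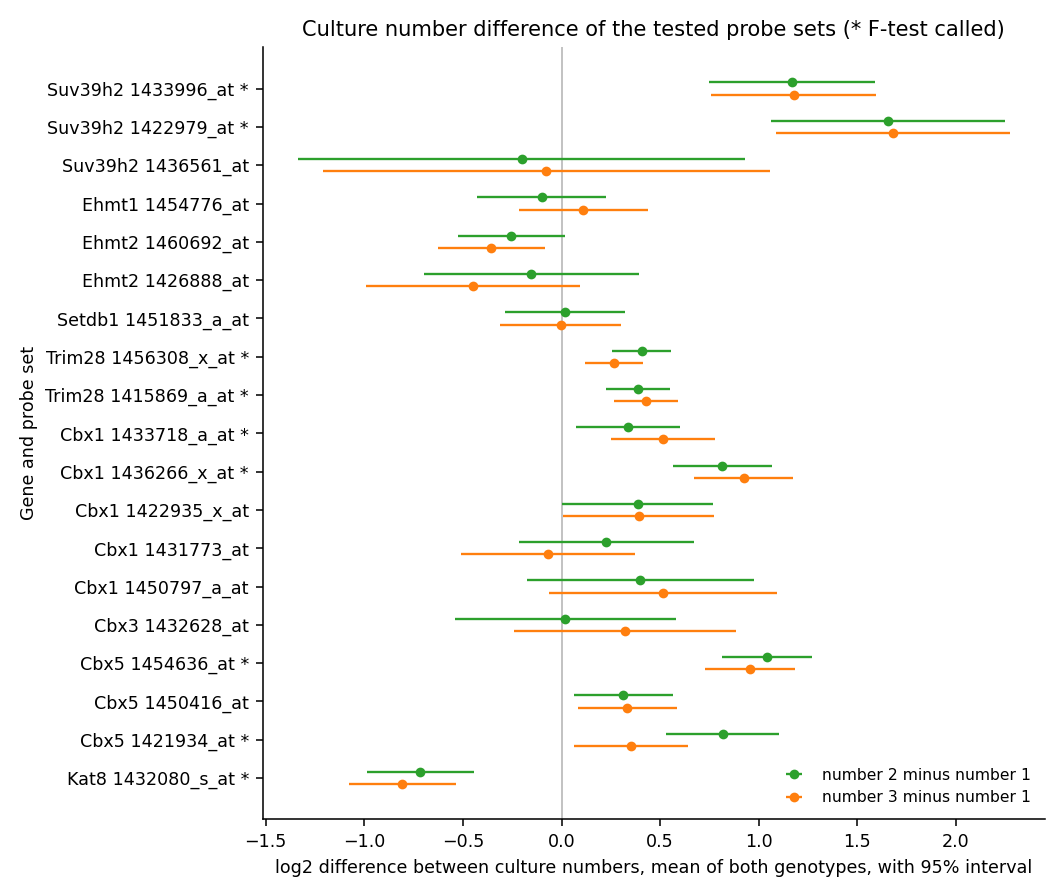
Log2 difference of culture number 2 (green) and number 3 (orange) from number 1, as the mean of both genotypes with its 95% limma interval (horizontal axis), for the 19 tested member probe sets. An asterisk marks the 9 called by the F-test, of which 8 lie to the right of 0 and Kat8 to the left.

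Other measures moved with the number. All 19 tested cell cycle genes were called with number 1 lowest, by 2.02-fold to 6.39-fold (median 3.97), and the sum of their signals was 22467 and 22547 in number 1 and between 66391 and 75822 in the others. Mki67, the proliferation marker, had 486 and 493 in number 1 and 2387 to 2923 elsewhere. All 8 macrophage markers were called with number 1 highest, at summed signals of 6741 and 12072 in number 1 and of 1279 to 1980.5 in the others. C1qa among them was at 380 and 1008 in number 1 and at most 9.02 elsewhere, and none of the markers was at exactly 0. Of the 10 fibroblast markers 6 were called by number, 5 with number 1 highest. Lum, a matrix proteoglycan, was 14.2-fold higher in number 1 (6548 and 7892 against 292 to 681), and Dcn, another, 7.57-fold. Summed over the list, number 1 had 116880 and 118540 and the others 94762 to 107540. A sum weighs bright probe sets most, here Vim at 21940 to 27450, which was called with number 1 lowest. Cell cycle sums ran from 22547 to 68468 in wild type and 22467 to 75822 in Zmpste24-/-, macrophage sums from 1522.5 to 6741 and 1279 to 12072. Each genotype holds 1 of the number 1 arrays, so these ranges overlap whatever the genotype does. Within pairs, wild type first, the macrophage sums were 6741 and 12072 in pair 1 and 1980.5 and 1279 in pair 3. Cell cycle sums were 22547 and 22467 in pair 1 and 66391 and 75822 in pair 2. The part of these marker sums in the members' differences was not tested. In a bulk culture, a change in the mix of cells and a change of RNA per cell cannot be told apart. Of markers of other cell types, 3 of 5 endothelial, 4 of 6 epithelial and 2 of 5 skeletal muscle genes passed the filter on dim signal. Among these, the epithelial keratin Krt18 was 5.92-fold lower in number 1 (116 and 128 against 579 to 897), the muscle filament gene Des 2.37-fold lower, the muscle actin Actc1 1.77-fold lower and the endothelial receptor Kdr 1.89-fold lower, all called by number, as was Krt8 with overlapping arrays. Emcn and Epcam, at 243 to 614 and 199 to 386, were not called, nor were Tek and Krt5, at 57.6 to 80.3 and 68.8 to 110. Pecam1, Cdh5, Krt14, Cdh1, Myod1, Myog and Myh3 did not pass the filter. Neural markers all passed it, with summed signals of 1327 to 2318 in wild type and 2212 to 2714.5 in Zmpste24-/-. Their median log2 difference was 0.52, with 5 of the 6 higher in Zmpste24-/-. With the replicate block 3 had an unadjusted limma p under 0.05, and 0 of the 6 were called by genotype. The groups did not overlap for Nefm and Fabp7, which differed by 0.81 and 0.67. Nefm was also called by number. The part of these markers in the members' genotype differences was not tested.

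The starts of 3 genes whose signal moved with the number are shown so that members lower in number 1 (Suv39h2, Cbx5) can be read beside the one that was higher (Kat8). They are from RefSeq (build GRCm38.p6), 5′ to 3′ on the strand of the gene, from 250 bases before the start to 50 after it. Capitals mark the E2F core GGCGGGA, the cell cycle homology motif TTTGAA and the CCAAT box, each on either strand. Where the table gives a gene several starts, every window is shown. Suv39h2 lies at chr2:3474937-3475236 on the minus strand. Cbx5 window 1 lies at chr15:103239803-103240102 on the minus strand. Cbx5 window 2 lies at chr15:103215303-103215602 on the minus strand. Kat8 window 1 lies at chr7:127912267-127912566 on the plus strand. Kat8 window 2 lies at chr7:127912764-127913063 on the plus strand.
Suv39h2: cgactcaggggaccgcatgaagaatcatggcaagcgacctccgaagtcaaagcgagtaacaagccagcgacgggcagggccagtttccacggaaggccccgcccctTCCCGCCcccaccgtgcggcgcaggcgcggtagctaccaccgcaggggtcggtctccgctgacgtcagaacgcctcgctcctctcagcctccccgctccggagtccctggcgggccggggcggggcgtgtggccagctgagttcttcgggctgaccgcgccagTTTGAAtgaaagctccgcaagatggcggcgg
Cbx5 window 1: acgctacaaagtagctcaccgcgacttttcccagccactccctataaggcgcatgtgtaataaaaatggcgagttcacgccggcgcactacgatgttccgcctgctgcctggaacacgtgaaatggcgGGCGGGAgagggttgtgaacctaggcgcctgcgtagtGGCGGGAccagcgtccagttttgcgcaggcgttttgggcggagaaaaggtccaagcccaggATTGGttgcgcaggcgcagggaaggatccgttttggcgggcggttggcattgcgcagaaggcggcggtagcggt
Cbx5 window 2: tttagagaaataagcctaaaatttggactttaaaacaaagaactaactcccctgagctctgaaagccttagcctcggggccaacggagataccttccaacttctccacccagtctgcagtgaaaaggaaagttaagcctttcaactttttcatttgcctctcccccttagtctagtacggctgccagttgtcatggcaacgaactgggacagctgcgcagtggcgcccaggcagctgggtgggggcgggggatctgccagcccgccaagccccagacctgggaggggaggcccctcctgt
Kat8 window 1: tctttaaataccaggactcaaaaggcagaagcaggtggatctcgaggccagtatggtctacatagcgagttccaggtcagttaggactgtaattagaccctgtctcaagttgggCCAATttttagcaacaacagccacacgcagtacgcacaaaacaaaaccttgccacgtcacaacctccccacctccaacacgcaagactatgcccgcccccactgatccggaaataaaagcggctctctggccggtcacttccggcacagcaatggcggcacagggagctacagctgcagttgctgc
Kat8 window 2: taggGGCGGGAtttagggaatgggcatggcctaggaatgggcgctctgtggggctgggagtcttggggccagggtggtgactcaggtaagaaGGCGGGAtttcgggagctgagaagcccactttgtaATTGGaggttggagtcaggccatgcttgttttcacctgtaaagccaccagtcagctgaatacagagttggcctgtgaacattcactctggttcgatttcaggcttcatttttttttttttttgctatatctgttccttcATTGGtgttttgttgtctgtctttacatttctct

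All 10 genes had a start window in the RefSeq table, 15 windows in all. The E2F core was in 5 of the 15, and in 11.3% of 32851 windows of all genes. Those 5 were 1 window each of Suv39h2, Cbx5, Trim28, Ehmt2 and Kat8, so it was found at genes low in number 1, at one not called and at one that was high, and not at Cbx1. The fuller E2F forms TTTGGCGC, TTTGCCGC, TTTCGCGC and TTTCCCGC were found only in the first window of Cbx3 and the second of Suv39h1, against 2.26% of all windows for any of the 4. TTTGAA was in 1 window, that of Suv39h2, 20 bases past its start (17.9% of all windows), and CCAAT in 5 (37.4%). The GC box GGGCGG, which can overlap the E2F core, was in 14 of 15 and in 35.7% of all. A match describes the letters only.

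Genes that work with the members or act on related marks were looked up in 8 lists (85 genes, 78 tested by their brightest probe set). The 8 include a Polycomb list, taken for comparison, with 12 of the tested genes. None was called between the genotypes by limma with or without the replicate block. With the block 10 of the 78, or 12.8%, had an unadjusted p under 0.05 (9 higher and 1 lower in Zmpste24-/-), beside the 8.99% of all probe sets, and 0 without it. By culture number 42, or 53.8%, were called, beside 41.6% of all probe sets. Number 1 was lowest in 28 of them and highest in 10, where 18.5% and 21.2% of all probe sets were called so. These genes were taken by their brightest probe set, while the shares of all probe sets include dimmer ones. With the dimmest 60% left out, 56.5% of all probe sets were called by number.

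Among the deacetylases, Hdac1, which removes acetyl groups from histones, had 4041, 4917 and 4685 in wild type and 2899, 3927 and 3868 in Zmpste24-/-. All Zmpste24-/- values lay below all wild-type values, with a log2 difference of -0.36, and the replicate block fit of limma gave an adjusted p of 0.256. Sirt1, a deacetylase that acts on histone H4 lysine 16, had 190.5, 324 and 371 in wild type and 255, 388 and 441 in Zmpste24-/-. It was higher in each pair with overlapping groups, by 0.29 on average (adjusted p = 0.537), and was called by number (0.00438), being 1.71-fold higher in numbers 2 and 3. Of the 7 genes of this list 4 were called by number.

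Among HP1 partners, 10 of 12 tested were called by number, 9 of them with number 1 lowest. Lbr, the lamin B receptor that ties HP1 to the nuclear envelope, was 3.47-fold higher in numbers 2 and 3, and Sgo1, which protects centromere cohesion and binds HP1, was 6.93-fold higher. The remodeller Atrx was 1.38-fold higher in number 1. Between the genotypes, Atrx and Sgo1 differed by 0.23 and 0.35 on the log2 scale and were higher in each pair, with adjusted p of 0.441 and 0.484 with the block. In the DNA methylation list, 4 of 9 were called by number, all with number 1 lowest, and Uhrf1, which links replication to DNA methylation and reads lysine 9 methylation, was 7.57-fold higher in numbers 2 and 3. Uhrf1 and its relative Uhrf2 differed between genotypes by 0.22 and 0.28 (adjusted p = 0.533 and 0.517).

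In the Kat8 complexes and other acetyltransferases of histone H4, 8 of 14 were called by number. Phf20 and Ogt, both parts of the Kat8-containing NSL complex, were 2.07-fold and 2.17-fold higher in number 1, the direction of Kat8 itself. The other 6 called were lowest in number 1, so parts of the NSL complex moved both ways. Mcrs1, Hcfc1 and Wdr5, also of that complex, were 1.78-fold, 1.8-fold and 2.09-fold higher in numbers 2 and 3. Hat1, which acetylates new histone H4, was 2.24-fold higher there. Phf20 and Hat1 differed between genotypes by -0.13 and 0.19 (adjusted p = 0.672 and 0.575).

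Partners of the methyltransferases were called by number in 5 of 11, 1 with number 1 lowest and 3 with it highest. Tasor, the core of the HUSH silencing complex that works with Setdb1, was 2.29-fold higher in number 1. Prdm16 and Zfp644 differed between genotypes by 0.32 and 0.14 (adjusted p = 0.662 and 0.680). Of the demethylases that remove the lysine 9 mark, 1 of 10 was called by number, Kdm7a, 2.25-fold higher in number 1. Kdm3b and Kdm4b differed between genotypes by -0.15 and -0.38 (0.666 and 0.680). In the list of histone H4 lysine 20 methyltransferases, which act downstream of HP1 or in mitosis, Kmt5a was 1.81-fold higher in numbers 2 and 3 and Kmt5b 1.41-fold higher in number 1, and 2 of 3 were called. They differed between genotypes by -0.03 and -0.12 (0.938 and 0.780).

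Polycomb genes, which place another silencing mark on lysine 27, were the list taken for comparison and are part of the totals over the 8 lists. Of 12 tested 8 were called by number, 5 with number 1 lowest. Ezh2, the methyltransferase of that mark, was 2.88-fold higher in numbers 2 and 3. Ezh2 and Bmi1 differed between genotypes by 0.34 and 0.22, higher in each pair, with adjusted p of 0.407 and 0.505 with the block. In the cell cycle list, Ccna2 was 6.39-fold higher in numbers 2 and 3, and Rrm2 and Kif11 differed between genotypes by 0.17 and 0.37 (0.489 and 0.490).

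**Figure D4:**
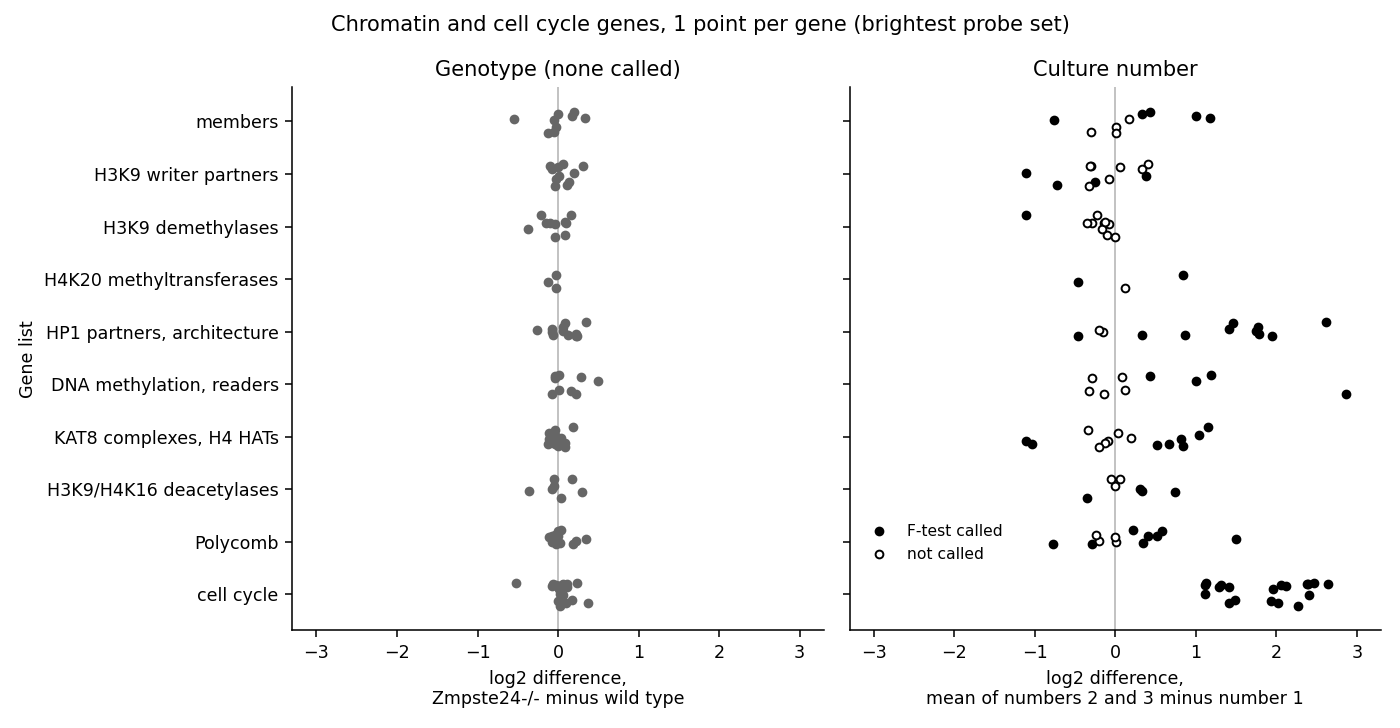
Log2 differences of the tested members and of the genes of 9 lists, 1 point for each gene by its brightest probe set, between genotypes (left) and as the mean of culture numbers 2 and 3 minus number 1 (right, filled where the F-test called the gene). No point on the left passed the test, with or without the replicate block, and on the right all 19 cell cycle genes are filled and right of 0 while the members lie on both sides.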

How the data were processed

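The deposited values are linear intensities, 1 for each probe set on each Affymetrix Mouse Genome 430 2.0 array. The submitters' processing notes name GCOS, an Affymetrix program, as what the authors used (version not given in the sources used here). Every array has a mean of 500 after 2% of values is trimmed from each end, which hides any difference in RNA content of the cells. Control probe sets (64) were left out, leaving 45037. Names came from the platform annotation, updated by gene identifier through a RefSeq table (GRCm38.p6). Of 34945 probe sets with 1 symbol, 34741 matched and 0 changed name. Probe sets with several symbols (932) or not listed (9160) were tested but not named.

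Values were analysed as log2(value + 16), so differences of dim genes are understated. The dimmest 40% by mean over all 6 arrays, under a signal of 39.4, were left out. Genotype was tested without a block, and the culture number by an F-test with genotype in the model, in limma 3.58.1 (R 4.3.3, trend on intensity), with Benjamini-Hochberg adjustment over all 27022 probe sets. The labels' numbers were taken as pairs, and the fit with the replicate block is given beside the other. Arrays of one number deviated together from their group means (r = 0.83, 0.59 and 0.57 for numbers 1, 2 and 3). Deviations from a group mean cancel within the group, and both arrays numbered 1 stood apart. Arrays numbered 2 and 3 therefore tend to deviate together whichever way they are matched. Their values cannot decide whether number 2 pairs with 2 and number 3 with 3. The members, gene lists, motifs and tests were chosen with earlier results of these data known. All members were named. From each list the 2 genes with the smallest genotype p with the block and the 1 with the smallest p for number were named, and markers where a result turned on them. The number of arrays limits the precision. Figures were drawn with matplotlib 3.10.9.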

Additional observations from a re-analysis of the deposited data

How the results depend on the processing

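Member probe sets called between the genotypes numbered 0 under every setting run, the replicate block among them. Apart from the replicate block, every setting used the fit without a block. In the main setting that limma fit called 0 of all 27022 probe sets and gave Zmpste24 an adjusted p of 0.987. A count of 0 there therefore says little about the members. The median genotype difference over members (-0.031) ran from -0.046 to 0.013 when 1 array was left out, and was 0.043 with array weights and 0.027 in numbers 2 and 3 alone, all within the SD of the 3 pairs (0.0877). By culture number 9 of 19 member probe sets were called, 8 to 10 when 1 array was left out (42.1% to 52.6%, beside 30.9% to 40% of all). It was 6 without the intensity trend (31.6%, beside 28.6%) and 11 with quantile normalization or median centring (57.9%, beside 40.6% and 39.9%). Without probe sets of suffix _s_at, _x_at or _a_at it was 4 of the 11 left (36.4%, beside 38.8%). Those 4 are all of Suv39h2 and Cbx5. The called probe sets of Trim28, Cbx1 and Kat8 all carry such a suffix, and the Cbx1 probe set without one was not called (F-test adjusted p = 0.436).

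Setdb1, Cbx1 and Cbx3 kept their direction under each alternative run for single genes, from -0.153 to -0.1, 0.005 to 0.329 and -0.726 to -0.382. The setting without the suffixes named above was not run for single genes. The Cbx1 probe set without such a suffix had a log2 difference of -0.07, and the tested Setdb1 probe set carries one. Cbx3 had 15 alternatives against 16 for Setdb1 and Cbx1, since its probe set did not pass the filter of 60%. The other directions did not all hold. Trim28 turned to 0.013 with quantile normalization, 0.010 with median centring, 0.004 with the mean of its probe sets and 0.027 in numbers 2 and 3 alone. Ehmt1 turned to 0.116 with array weights, Ehmt2 to 0.043 with array weights and 0.092 in numbers 2 and 3 alone, and Kat8 to 0.009 in the latter. When 1 array was left out the difference ran from -0.031 to 0.750 for Suv39h2, -0.149 to 0.101 for Ehmt1, -0.160 to 0.125 for Ehmt2, -0.117 to 0.123 for Trim28, -0.156 to 0.509 for Cbx5 and -0.277 to 0.231 for Kat8. Leaving out wild-type culture 1 gave the lowest value of Suv39h2 and Cbx5, and leaving out Zmpste24-/- culture 1 the highest. The cause of the other changes was not tested.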
